A study of Macaca mulatta with 33 samples.

Results

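Transcripts of 10 genes of the mitochondrial genome, all of which encode subunits of the respiratory chain, were described in juvenile macaque liver. They are ND1, ND2, ND3, ND4, ND5 and ND6 of complex I (NADH dehydrogenase), CYTB of complex III (the cytochrome bc1 complex), and COX1, COX2 and COX3 of complex IV (cytochrome c oxidase). They were picked by gene name from the 34882 genes of the deposited expression table. ATP6, ATP8 and ND4L were left out because their reading frames overlap those of neighbouring genes. All 10 were listed with a value above 0 in each of the 33 libraries. All 10 also passed the filter on low values, a mean of at least 0.5 FPKM (the fragments of a gene scaled by its length and by the fragments mapped in the library), which left 12497 genes for testing.

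The 33 livers came from animals of 3 years of age, 1 library per animal, in 4 groups named by the mother's diet and then the diet after weaning. The 7 WSD/WSD animals had mothers on a western-style diet (WSD) through gestation and lactation and were weaned onto the same diet. The 10 WSD/CD animals had mothers on WSD and were weaned onto a control diet (CD). The 6 CD/WSD animals had mothers on CD and were weaned onto WSD, and the 10 CD/CD animals had CD on both sides. The design text calls the animals Japanese macaques, while the organism field names the rhesus macaque, a close relative. Nothing on relatedness, sex or collection dates stands in the labels used here. The summed FPKM of 6 Y-linked genes had a median of 0.357 for WSD/WSD, 28.01 for WSD/CD, 28.1 for CD/WSD and 0.271 for CD/CD, and lay between 28.5 and 36.8 in all 5 animals numbered above 34000.

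The mitochondrial genome is a small circle that each cell carries in many copies. It is transcribed by the nuclear-encoded polymerase POLRMT, with the factors TFAM and TFB2M, into long precursor RNAs that are cut at the transfer RNAs between the genes, so that most messages begin as pieces of the same precursor. ND6 is read from the other strand. The respiratory complexes join these few proteins to many subunits made from nuclear genes, and the liver, which oxidises fatty acids, is rich in them.

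Some libraries stood apart before any comparison of diets. The sample titles carry animal numbers that begin with 30, 31, 33 or 34, and what these number series stand for is not given in the labels used here. All 5 animals numbered above 34000 were WSD/CD animals, so that series and diet cannot be told apart for them. In 4 of these 5 (WSD/CD replicates 6, 7, 9 and 10) the summed FPKM of 13 hepatocyte markers was 7213, 13304, 11197 and 18237, against 25731 to 38749 in the 23 libraries outside WSD/CD. All 13 markers, genes that define the liver parenchyma, passed the filter on low values. The sum is weighted to SERPINA1, with a mean of 14507 FPKM over the 33 libraries, then APOA1 at 5893 and FGB at 3650. Total depth is not given by an FPKM table. A rough relative depth from the lowest values ran from 0.525 to 1.67 between libraries, resting on 82 to 250 genes per library of which 19.8% to 43.8% lay near the most common ratio. The numbers 30, 31 and 33 also divide the groups unevenly: CD/CD animals fell 4, 1 and 5 into these series.

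Levels differed widely among the 10 transcripts. COX3 (ENSMMUG00000065366), a core subunit of cytochrome c oxidase, had a median of 6701 FPKM over the 33 libraries. By its mean it stood above 99.98% of all tested genes. ND2 (ENSMMUG00000065356), a membrane subunit of complex I, had a median of 521 FPKM. COX1 (ENSMMUG00000065358), which carries the catalytic haem and copper centre of complex IV, had 141 FPKM, and CYTB (ENSMMUG00000065382), the haem-bearing core of complex III, had 135 FPKM. These 4 were followed by complex I members, whose proteins all lie in the membrane arm: ND3 (ENSMMUG00000065353) at a median of 73.0 FPKM, ND1 (ENSMMUG00000065372) at 38.2 FPKM and ND4 (ENSMMUG00000065387) at 20.5 FPKM. The lowest were ND6 (ENSMMUG00000065359) at 4.45 FPKM, COX2 (ENSMMUG00000065380), the subunit that takes electrons from cytochrome c, at 3.07 FPKM, and ND5 (ENSMMUG00000065354), a proton-pumping subunit, at 1.40 FPKM. COX3 made up 85.9% to 91.0% of the summed FPKM of the 10 transcripts in a library. How reads shared with nuclear copies of mitochondrial sequence, or with overlapping genes, were assigned is not given in the sources used here, so the order of levels among the transcripts is that of the deposited values and is uncertain for that reason.

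Across the diet groups, all 10 transcripts had their highest group mean in WSD/CD livers, and the WSD/CD group was also the most variable. From its lowest to its highest library a transcript varied 1.59-fold to 3.29-fold within WSD/WSD, 4.87-fold (COX2) to 18.6-fold (ND6) within WSD/CD, 1.81-fold to 3.31-fold within CD/WSD and 2.28-fold to 5.92-fold within CD/CD. Values are given below as the lowest, median and highest FPKM of a group.

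Complex I transcripts came high in part of the WSD/CD livers. ND1 had 18.8, 29.98 and 46.2 FPKM in WSD/WSD livers, 22.5, 95.9 and 223 FPKM in WSD/CD livers, 26.7, 33.9 and 60.7 FPKM in CD/WSD livers, and 21.1, 37.2 and 64.4 FPKM in CD/CD livers. ND2 had 344, 450 and 644 FPKM in WSD/WSD livers, 399, 1236 and 4071 FPKM in WSD/CD livers, 434, 492.6 and 929 FPKM in CD/WSD livers, and 325, 551 and 1029 FPKM in CD/CD livers. For both genes 6 of 10 WSD/CD libraries lay above the highest CD/CD library, while the other 4 fell inside the CD/CD range. ND3 had 32.98, 59.6 and 109 FPKM in WSD/WSD livers, 57.3, 148 and 316 FPKM in WSD/CD livers, 46.5, 60.4 and 112 FPKM in CD/WSD livers, and 40.5, 82.1 and 160 FPKM in CD/CD livers. ND4 had 16.1, 18.6 and 25.5 FPKM in WSD/WSD livers, 13.7, 39.4 and 94.3 FPKM in WSD/CD livers, 13.8, 19.8 and 28.9 FPKM in CD/WSD livers, and 13.1, 20.2 and 31.1 FPKM in CD/CD livers. Of ND3 and ND4, 5 of 10 WSD/CD libraries exceeded every CD/CD library, and the groups overlapped below that.

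ND5 and ND6, which lie next to each other on opposite strands, had the widest WSD/CD ranges of the complex I transcripts. ND5 had 0.833, 1.37 and 1.73 FPKM in WSD/WSD livers, 0.969, 2.91 and 15.7 FPKM in WSD/CD livers, 0.960, 1.54 and 2.84 FPKM in CD/WSD livers, and 0.641, 1.24 and 2.72 FPKM in CD/CD livers. ND6 had 1.40, 2.21 and 4.499 FPKM in WSD/WSD livers, 2.48, 9.63 and 46.1 FPKM in WSD/CD livers, 3.74, 4.63 and 6.75 FPKM in CD/WSD livers, and 2.57, 5.01 and 10.8 FPKM in CD/CD livers. For each, 5 of 10 WSD/CD libraries were above the CD/CD maximum. For ND6, 4 of 7 WSD/WSD libraries and 1 of 10 WSD/CD libraries lay below the lowest CD/CD library, so the WSD/CD group reached past CD/CD on both sides.

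CYTB and the complex IV transcripts showed the same layout of groups. CYTB had 69.4, 99.6 and 131 FPKM in WSD/WSD livers, 97.4, 262 and 1274 FPKM in WSD/CD livers, 88.4, 135 and 205 FPKM in CD/WSD livers, and 59.2, 165 and 351 FPKM in CD/CD livers. COX1 had 70.8, 134 and 198 FPKM in WSD/WSD livers, 111, 279 and 622 FPKM in WSD/CD livers, 80.5, 129 and 228 FPKM in CD/WSD livers, and 85.3, 117 and 203 FPKM in CD/CD livers. Above the CD/CD maximum lay 3 of 10 WSD/CD libraries for CYTB and 6 of 10 for COX1. COX2 had 1.86, 2.91 and 4.35 FPKM in WSD/WSD livers, 1.96, 5.03 and 9.56 FPKM in WSD/CD livers, 1.69, 2.79 and 5.60 FPKM in CD/WSD livers, and 1.42, 2.93 and 5.83 FPKM in CD/CD livers. COX3 had 4428, 5531 and 8572 FPKM in WSD/WSD livers, 4814, 19128 and 49161 FPKM in WSD/CD livers, 5329, 6390 and 12904 FPKM in CD/WSD livers, and 4893, 7116 and 11159 FPKM in CD/CD livers. For COX3 6 of 10 WSD/CD libraries were above every CD/CD library, and for COX2 4 of 10.

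**Figure D1:**
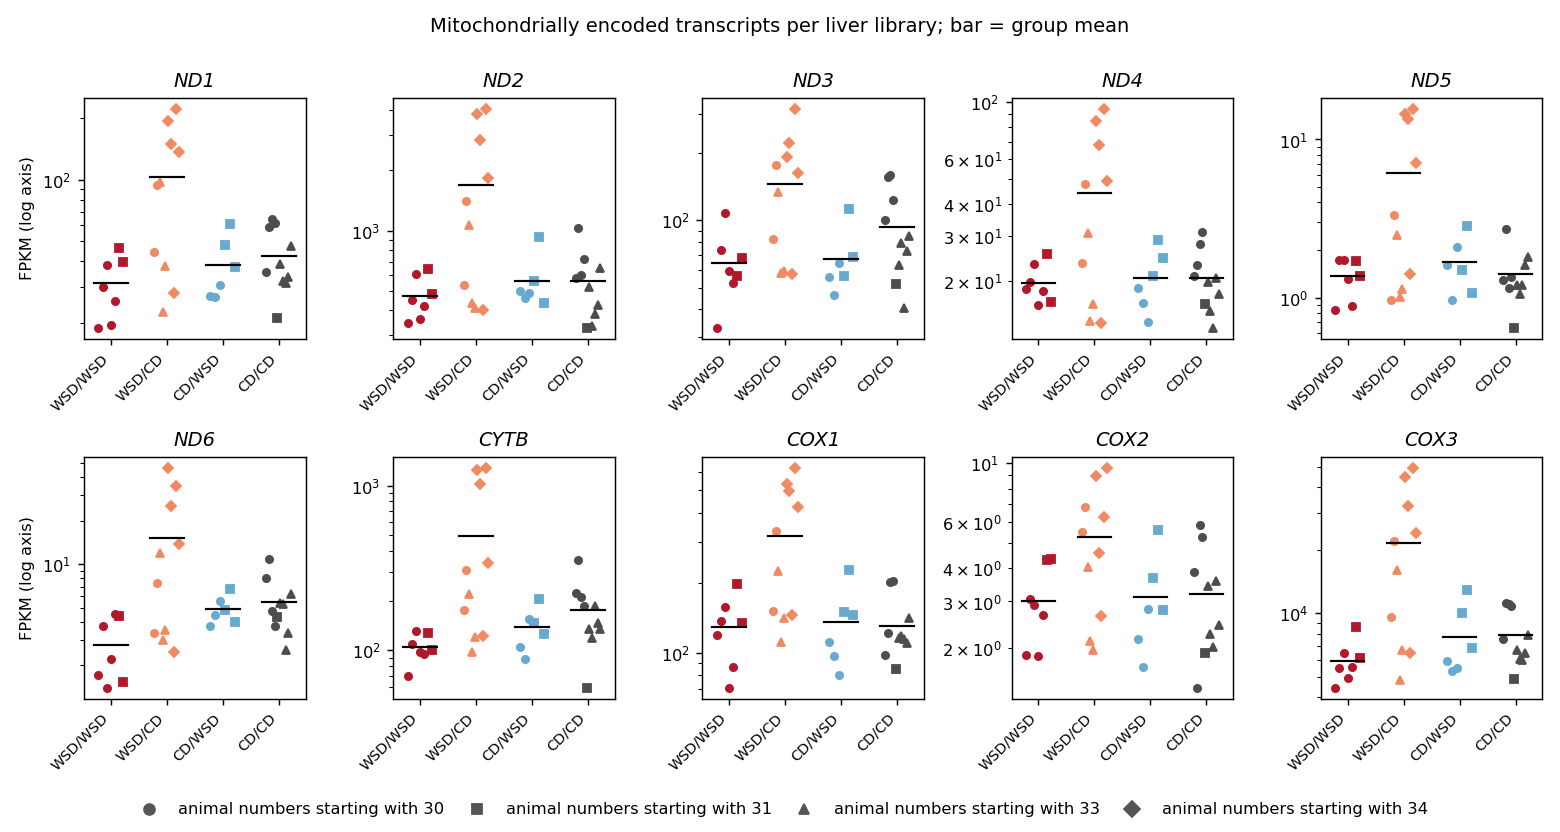
Level of each of the 10 transcripts in FPKM on log axes, 1 point per library, with groups from left to right and the marker shape giving the leading digits of the animal number. Bars are group means; the WSD/CD points spread upwards in every panel, with 4 of the 5 animals numbered above 34000 among the highest, and the CYTB panel runs from 59.2 to 1274 FPKM.

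The excess came in whole libraries rather than gene by gene. WSD/CD replicates 6 and 9 exceeded the highest CD/CD library for 10 of 10 transcripts, replicates 7 and 10 for 9 of 10, replicate 2 for 8 of 10 and replicate 3 for 5 of 10. In these 6 libraries all 10 transcripts were above the CD/CD mean on the log2(FPKM + 1) scale. The median deviation from the CD/CD mean was 2.40 in replicate 6, 2.03 in replicate 7, 2.50 in replicate 9 and 1.54 in replicate 10. It was 1.13 in replicate 2, from series 30, and 0.73 in replicate 3, from series 33. The other 4 WSD/CD libraries, replicates 1, 4, 5 and 8, had median deviations of 0.14, -0.51, -0.31 and -0.39, and none of their transcripts exceeded the CD/CD maximum. Replicate 8 is the remaining animal numbered above 34000. Outside WSD/CD, CD/WSD replicate 5 had all 10 transcripts above the CD/CD mean, with a median deviation of 0.64.

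**Figure D2:**
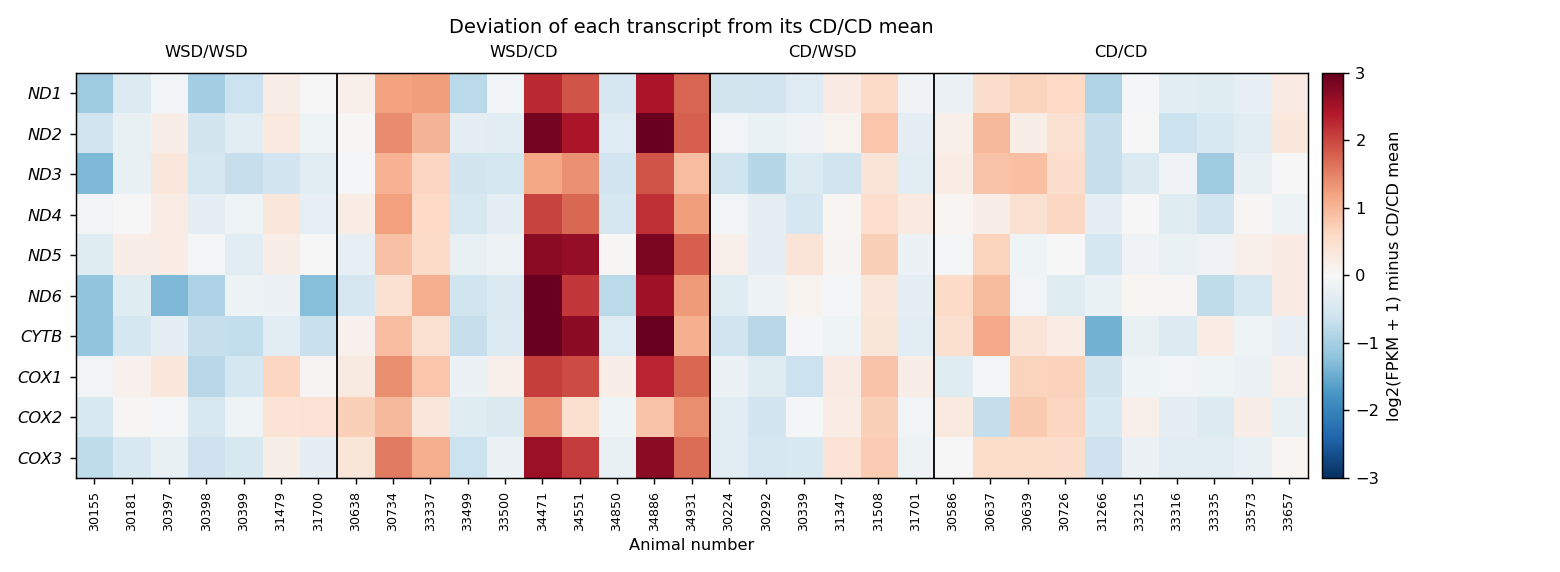
Deviation of each transcript from its CD/CD mean on the log2(FPKM + 1) scale, transcripts down and the 33 libraries across, ordered by group and animal number. The 4 columns of strong red in WSD/CD are replicates 6, 7, 9 and 10, with medians between 1.54 and 2.50, and COX2 and ND3 have the lowest deviations of the 10 in replicates 6, 7 and 9.

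The share of all summed FPKM taken by the 10 transcripts showed what this excess came to. It was 1.81% ± 0.413 in WSD/WSD (SD, n = 7), 7.12% ± 5.60 in WSD/CD (SD, n = 10), 2.39% ± 1.09 in CD/WSD (SD, n = 6) and 2.35% ± 0.736 in CD/CD (SD, n = 10). The highest library, WSD/CD replicate 9, had 16.1% of its summed FPKM in these 10 genes, and the lowest WSD/CD library had 1.43%. Within series 34 the WSD/CD shares ran from 1.97% to 16.1%, with a median of 11.5%. Within series 30 the 2 WSD/CD libraries had 2.95% and 6.94%, against 2.44% to 3.46% in the 4 CD/CD libraries. Within series 33 the 3 WSD/CD libraries had 1.43%, 1.95% and 5.06%, against 1.75% to 2.43% in the 5 CD/CD libraries. A share of the summed FPKM is not a share of fragments, since FPKM divides by transcript length.

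**Figure D3:**
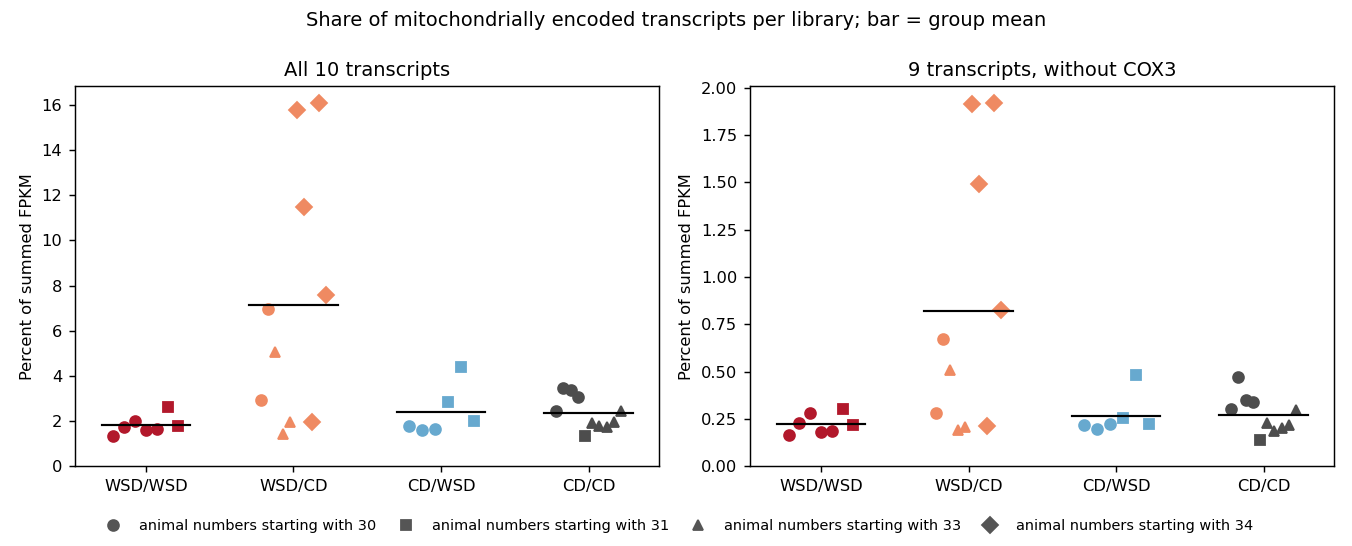
Percent of the summed FPKM of a library in all 10 transcripts (left) and in the 9 without COX3 (right), 1 point per library, with bars at group means and marker shapes for the number series. On the left the WSD/WSD points lie between 1.34% and 2.64%, while the WSD/CD points run from 1.43% to 16.1%, and the right panel has the same layout.

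The first comparison was that of WSD/CD with CD/CD livers, which differ in the mother's diet while both ate the control diet after weaning. In WSD/CD livers 4 of the 10 transcripts were higher and 0 were lower by limma, at an adjusted p under 0.05 over all tested genes. Of all tested genes 1.52% were called higher and 8.03% lower. COX1 averaged 318 ± 189 FPKM in WSD/CD and 131 ± 40.4 FPKM in CD/CD livers (SD, n = 10 each), a log2 fold change of 1.07 (SE 0.28, limma adjusted p = 0.0232), and 9 of 10 WSD/CD libraries were above the CD/CD mean. COX3 averaged 21650 ± 16062 FPKM in WSD/CD and 7864 ± 2337 FPKM in CD/CD livers, a log2 fold change of 1.10 (SE 0.33, limma adjusted p = 0.0357). ND5 had a log2 fold change of 1.08 (SE 0.32, limma adjusted p = 0.0357) and ND2 one of 1.15 (SE 0.36, limma adjusted p = 0.0399), and for COX3, ND5 and ND2 alike 7 of 10 WSD/CD libraries were above the CD/CD mean. Other scalings moved the split of all called genes, from 190 higher and 1003 lower to 400 higher and 356 lower under median-of-ratios scaling, where the same 4 transcripts were called, and to 237 higher and 232 lower under scaling to the summed FPKM of nuclear genes, where COX1, COX3 and ND5 were.

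The other 6 transcripts missed the threshold with positive fold changes. They were 0.95 for ND1 (adjusted p = 0.0584), 0.80 for ND4 (adjusted p = 0.056), 0.97 for CYTB (adjusted p = 0.0908), 0.81 for ND6 (adjusted p = 0.133), 0.53 for ND3 (adjusted p = 0.21) and 0.52 for COX2 (adjusted p = 0.118), all by limma on the log2 scale. The median over the 10 was 0.96, where the median over all tested genes was -0.15. Without the 5 animals numbered above 34000, 0 of the 10 were called and the median fold change was 0.25. With the mean log2(FPKM + 1) of the 6 Y-linked genes as a term in the fit COX1 alone was called. With the number series as a term 0 were called, and within series 30 or within series 33 alone 0 were called, as was the case when the fit held the WSD/CD and CD/CD libraries alone (smallest adjusted p 0.0729). Leaving out WSD/CD replicate 6, 7 or 9 singly also left 0 called, and WSD/CD replicate 10 or CD/CD replicate 5, 6 or 7 left 1. The number of all tested genes called moved as well, from 190 higher and 1003 lower in the main fit. It ran from 201 to 2329, both directions together, with each library left out, and from 0 to 1817 over 14 other alternatives. The 0 counts of the 10 transcripts are read beside that loss of calls over the whole table.

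In WSD/WSD against WSD/CD livers, which share the mother's WSD and differ in the diet after weaning, 9 of 10 transcripts fell and 0 rose. Of all tested genes 6.14% fell and 37.9% rose in this comparison. CYTB averaged 104 ± 21.04 FPKM in WSD/WSD (SD, n = 7) and 491 ± 485 FPKM in WSD/CD livers (SD, n = 10), a log2 fold change of -1.61 (SE 0.43, limma adjusted p = 0.00403). COX3 averaged 5943 ± 1350 FPKM in WSD/WSD and 21650 ± 16062 FPKM in WSD/CD livers, with -1.48 (SE 0.36, limma adjusted p = 0.00255). ND6 averaged 2.78 ± 1.38 FPKM in WSD/WSD and 15.2 ± 15.3 FPKM in WSD/CD livers, with -1.58 (SE 0.41, limma adjusted p = 0.00329). For each of the 10 transcripts all 7 WSD/WSD libraries were below the WSD/CD mean on the log2 scale, but the groups overlapped. The remaining calls were ND1 at -1.38, ND2 at -1.34, COX1 at -1.11, ND5 at -1.09, ND3 at -1.01 and ND4 at -0.83, with limma adjusted p-values between 0.00385 and 0.0262. COX2 had -0.55 (limma adjusted p = 0.068). The median over the 10 was -1.23, where the median over all tested genes was 0.26. This comparison uses the same WSD/CD libraries as the one with CD/CD. Without the animals numbered above 34000 it called 0 of 10, and with the number series as a term it called ND3 and COX3. Over the alternative fits, apart from those leaving out 1 library, all tested genes called ran from 432 to 5848. Within series 30, where 5 WSD/WSD animals met 2 WSD/CD animals, 7 of 10 were lower in WSD/WSD, where 10.5% of all tested genes were.

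In WSD/CD against CD/WSD livers, which differ in both diets, COX1 and COX3 were higher and 0 were lower, where 2.09% of all tested genes were called higher and 12.1% lower. COX1 averaged 318 ± 189 FPKM in WSD/CD (SD, n = 10) and 135 ± 52.6 FPKM in CD/WSD livers (SD, n = 6), a log2 fold change of 1.05 (SE 0.32, limma adjusted p = 0.0363). COX3 averaged 21650 ± 16062 FPKM in WSD/CD and 7759 ± 3054 FPKM in CD/WSD livers, with 1.15 (SE 0.38, limma adjusted p = 0.0429). Under median-of-ratios scaling the same 2 were called, while the split of all called genes was 610 higher and 589 lower, against 261 higher and 1514 lower as deposited. The other 8 transcripts had fold changes between 0.53 and 1.24 and adjusted p-values between 0.0511 and 0.133. Without the animals numbered above 34000 this comparison called 0 of 10. Over its alternative fits, apart from those leaving out 1 library, all tested genes called ran from 0 to 6223.

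**Figure D4:**
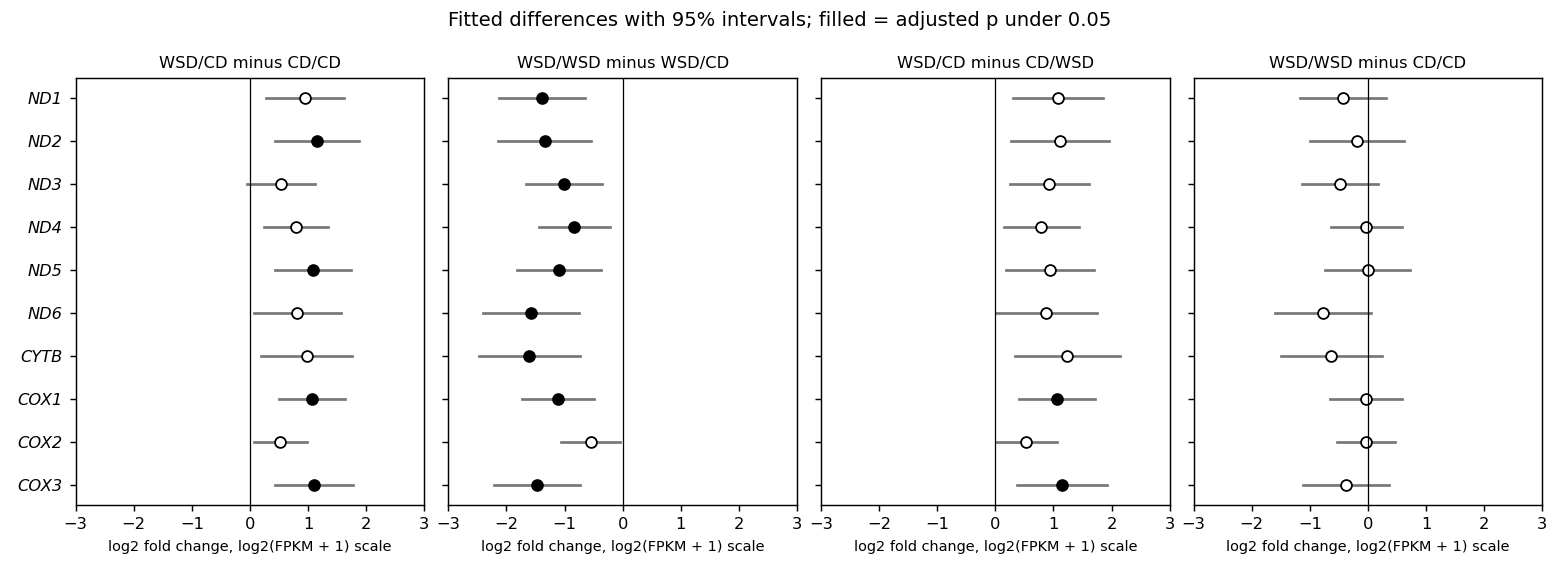
Fitted log2 fold changes of the 10 transcripts on the log2(FPKM + 1) scale with 95% intervals, in the 3 comparisons that hold calls and in WSD/WSD minus CD/CD; filled points passed an adjusted p under 0.05. Points lie right of 0 for WSD/CD minus CD/CD (median 0.96) and left of 0 for WSD/WSD minus WSD/CD (median -1.23), and the intervals are wide for every transcript.

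The comparisons without WSD/CD libraries gave no call among the 10 in the fit over all 33 libraries. That fit used 1 estimate of the spread for the 4 groups, and WSD/CD was the most variable of them. The absence of a call here therefore does not show that levels were alike. In CD/WSD against CD/CD livers, which differ in the diet after weaning, fold changes ran from -0.40 to 0.15 and 0 of 10 were called (0 of 10 at an unadjusted p under 0.05), where limma called 0.024% of all tested genes. In WSD/WSD against CD/CD livers 0 of 10 were called, also 0 at an unadjusted p under 0.05, with fold changes from -0.77 to -0.01, where limma called 16.7% of all tested genes. All 10 were negative there, with a median of -0.28 against 0.10 over all tested genes. For ND6 and CYTB 0 of 7 WSD/WSD libraries lay above the CD/CD mean on the log2 scale, and for the other transcripts 1 to 4 of 7 did. In WSD/WSD against CD/WSD livers 0 of 10 were called and 0% of all tested genes, although 307 genes had an unadjusted p under 0.05, and fold changes ran from -0.70 to -0.02.

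These comparisons gave other counts within series 30. There CD/WSD livers had 5 of 10 transcripts lower than CD/CD livers (ND1, ND3, ND4, CYTB and COX3), where 9.75% of all tested genes were lower, by limma at an adjusted p under 0.05. WSD/WSD livers had 6 of 10 lower (ND1, ND2, ND3, ND6, CYTB and COX3), where 11.4% of all tested genes were lower. Cell type markers moved in the same libraries. Within series 30 the summed FPKM of 9 endothelial markers was 78.5 to 90.2 in WSD/WSD and 85.1 to 96.0 in CD/WSD, against 38.3 to 48.8 in CD/CD. That of 11 Kupffer cell and macrophage markers was 678 to 826 in WSD/WSD and 822 to 948 in CD/WSD, against 477 to 622 in CD/CD, and that of the 13 stellate cell and fibroblast markers was 173 to 186 in WSD/WSD and 175 to 215 in CD/WSD, against 113 to 150.001 in CD/CD. The part of these cells in the counts within series 30 was not tested. Members of the Kupffer cell list differed in direction. Over all series, 8 of its 10 tested markers were positive in WSD/WSD minus CD/CD and 4 of 10 in CD/WSD minus CD/CD. VSIG4, for one, averaged 32.9 FPKM in WSD/WSD and 48.6 in CD/WSD, against 89.9 in CD/CD. Series 31 gave 0 calls in both comparisons. It holds 1 CD/CD animal, replicate 5, whose 10 transcripts were all below the CD/CD mean (median deviation -0.59), so a sign within that series rests on this library. In series 31 the endothelial sum was 24.01 and 28.03 in the WSD/WSD libraries and 22.9 to 28.4 in the CD/WSD libraries, against 66.5 in the CD/CD library, the other way from series 30. Whether the difference of the mother's diets depended on the diet after weaning was tested as an interaction, which called 0 of 10 and 0% of all tested genes. Of the 10, 7 had an unadjusted p under 0.05 (as had 2453 of 12497 genes), with adjusted p-values between 0.209 and 0.428 by limma and a median contrast of -1.24 on the log2 scale.

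Because ND6 is read from the other strand than its neighbour CYTB, their ratio was set apart. ND6 came to 2.70% ± 1.26 of the CYTB level in WSD/WSD (SD, n = 7), 3.08% ± 1.07 in WSD/CD (SD, n = 10), 3.67% ± 0.691 in CD/WSD (SD, n = 6) and 3.50% ± 1.71 in CD/CD (SD, n = 10), both in FPKM. What was tested was ND6 minus CYTB on the log2(FPKM + 1) scale. Because of the added 1, it is not the log2 of that percentage. This value was -4.88 in WSD/CD and -4.72 in CD/CD, a difference of -0.16 (permutation test, two-sided, adjusted p = 0.767). In none of the 6 pairwise comparisons did it pass, the smallest p being that of WSD/CD minus CD/WSD at -0.36 (exact permutation test, two-sided, p = 0.0712, adjusted p = 0.427), with 8 of 10 WSD/CD libraries below the CD/WSD mean.

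The transcripts varied together across libraries. Over the 33 libraries Spearman's rho between the 45 pairs ran from 0.42 to 0.97 with a median of 0.75, and the closest pair was ND1 and COX3 at 0.97. Over the 23 libraries outside WSD/CD it ran from 0.02 to 0.95 with a median of 0.58. ND6 was the loosest there, with a median rho of 0.35 to the other 9, against 0.73 for ND1 and 0.72 for COX3. The points share their libraries, the library scaling and, in part, the number series, so these are descriptions.

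Nuclear genes were searched for the pattern most like the mean log2 level of the 10. Among 10040 genes, KCTD15 (rho 0.78), ADAM1 (0.78), SERGEF (0.77), C18H18orf32 (0.76) and BUD13 (0.74) were the closest by Spearman's rho over 33 libraries. The most opposite were MBTPS1 (-0.92), the site-1 protease that cleaves membrane-bound transcription factors in the Golgi, LRP10 (-0.90), a receptor of the low-density lipoprotein receptor family, FLOT2 (-0.89), a membrane raft protein, RIOK3 (-0.88), a kinase, and PLA1A (-0.88), a phospholipase. MBTPS1 averaged 38.3 ± 7.64 FPKM in WSD/WSD (SD, n = 7), 24.5 ± 7.81 FPKM in WSD/CD (SD, n = 10), 32.7 ± 6.16 FPKM in CD/WSD (SD, n = 6) and 29.1 ± 4.77 FPKM in CD/CD (SD, n = 10). Over the 23 libraries outside WSD/CD its rho was -0.88, and MBTPS1 and LRP10 were again among the 5 most opposite, while none of the 5 closest genes was shared.

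The nuclear genes whose proteins join these transcripts' products did not rise with them in WSD/CD livers. Counts of these genes are read beside the 1.52% of all tested genes called higher and the 8.03% called lower. Of 29 tested nuclear complex I subunits, 0 were higher and 11 lower in WSD/CD livers than in CD/CD livers, with a median log2 fold change of -0.43 against -0.15 over all tested genes. NDUFV1, which binds NADH, averaged 42.8 ± 13.5 FPKM in WSD/CD and 65.1 ± 7.15 FPKM in CD/CD livers (SD, n = 10 each), a log2 fold change of -0.65 (limma adjusted p = 0.0133). NDUFC2, NDUFS3 and NDUFB11 fell by 0.68, 0.55 and 0.60 on the log2 scale (limma adjusted p = 0.0178, 0.0207 and 0.0239). Of 6 tested complex III genes 0 were higher and 2 lower, UQCRH at -0.59 and UQCRC1, a core subunit, at -0.75 (limma adjusted p = 0.0183 and 0.0227). Of 11 complex IV genes 0 were higher and 3 lower, COX8A at -0.69, COX5A at -0.57 and COX4I1 at -0.51 (limma adjusted p = 0.0165, 0.0394 and 0.045). FPKM are scaled by the fragments mapped in a library, so nuclear values are not independent of the level of the 10 transcripts. The part of this scaling in the nuclear counts was not tested. With every library scaled to the summed FPKM of its nuclear genes, 3 of 29, 2 of 6 and 1 of 11 were lower and 0 were higher. The table as a whole also held fewer lower calls under that scaling, as given above with the 10 transcripts. Without the animals numbered above 34000, 0 genes of the 3 lists passed.

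Genes that make and handle mitochondrial RNA were also described. Their counts in WSD/CD livers, set against CD/CD livers, are read beside the 8.03% of all tested genes called lower. Of 18 genes of mitochondrial transcription and genome maintenance, 0 were higher and 3 lower in WSD/CD livers than in CD/CD livers, with a median of -0.26. POLRMT, the polymerase, averaged 9.17 ± 2.79 FPKM in WSD/CD and 12.8 ± 1.24 FPKM in CD/CD livers (SD, n = 10 each), a log2 fold change of -0.48 (limma adjusted p = 0.0233). MTERF3, a repressor of mitochondrial transcription, and TFB2M, the initiation factor, were at -0.36 and -0.33 (limma adjusted p = 0.0412 and 0.0463). Of 20 genes of RNA processing, stability and decay, 0 were higher and 2 lower: HSD17B10, a subunit of mitochondrial RNase P, at -0.77, and FASTK at -0.46 (limma adjusted p = 0.0183 and 0.0351). Of 12 translation factors 1 was lower, MRRF, the ribosome recycling factor, at -0.56 (limma adjusted p = 0.0438). Of 12 regulators of mitochondrial biogenesis 1 was lower, SIRT3, a mitochondrial deacetylase, at -0.38 (limma adjusted p = 0.0321), and 0 were higher in both lists. In the RNA processing, translation and biogenesis lists 2 of 20, 1 of 12 and 1 of 12 lay near that background. Without the animals numbered above 34000, 0 genes of these 4 lists were called, and under nuclear scaling 1 was, from the RNA processing list.

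In WSD/WSD against WSD/CD livers, where 9 of the 10 transcripts fell, most of these nuclear lists held more genes that rose than fell, as did the table as a whole, and several of the counts turned with the scaling. Of 20 RNA processing genes 12 rose and 0 fell, with FASTKD3, an RNA-binding protein of the organelle, at 3.52 ± 1.11 FPKM in WSD/WSD (SD, n = 7) and 1.84 ± 0.817 FPKM in WSD/CD livers (SD, n = 10), a log2 fold change of 0.69 (limma adjusted p = 0.00271). Of 12 translation factors 10 rose and 1 fell, led by MRRF at 0.93 (limma adjusted p = 0.0013). Of 18 transcription and maintenance genes 7 rose and 2 fell, with a median of 0.18 against 0.26 over all tested genes. TFAM, which packages the mitochondrial genome and starts its transcription, averaged 28.5 ± 4.45 FPKM in WSD/WSD and 12.4 ± 7.85 FPKM in WSD/CD livers, a log2 fold change of 1.34 (limma adjusted p = 0.00129). Of 12 biogenesis regulators 6 rose and 0 fell, among them GABPA at 0.74 and YY1 at 0.99, both transcription factors (limma adjusted p = 0.00175 and 0.00209). Of 29 complex I genes 6 rose and 1 fell, of 6 complex III genes 3 rose and of 11 complex IV genes 1 rose. Among all tested genes 37.9% rose and 6.14% fell, so the complex I and complex IV shares were below that background. The rising share of the transcription and maintenance list, 7 of 18, lay near it. Under median-of-ratios scaling the split of all called genes went to 2333 higher and 2103 lower, against 4731 higher and 767 lower as deposited. The complex I count turned to 1 higher and 9 lower there, and that of complex IV to 0 higher and 3 lower. The RNA processing count became 2 higher and 1 lower under that scaling, the translation count 4 higher and 1 lower, the transcription count 3 higher and 4 lower, and the biogenesis count 3 higher and 2 lower. Without the animals numbered above 34000, 0 genes of any of these lists passed.

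In WSD/WSD against CD/CD livers, where 0 of the 10 mitochondrially encoded transcripts were called, 8 of 29 nuclear complex I genes were lower and 0 higher, where 3.42% of all tested genes were lower. Median-of-ratios scaling gave 13 lower and 0 higher, with a split of 1260 higher and 1020 lower over all genes, against 1655 higher and 428 lower as deposited. NDUFB7 averaged 168 ± 38.5 FPKM in WSD/WSD (SD, n = 7) and 296 ± 78.8 FPKM in CD/CD livers (SD, n = 10), a log2 fold change of -0.80 (limma adjusted p = 0.00688). NDUFA1 was at -1.19, NDUFA6 at -0.77 and NDUFB1 at -0.77 (limma adjusted p = 0.00968, 0.00624 and 0.0143). COX5B and NDUFA4 of 11 complex IV genes and UQCRB of 6 complex III genes were lower, at -0.61, -0.39 and -0.55. Among 18 transcription and maintenance genes 1 was higher and 2 lower, where 13.2% of all tested genes were higher and 3.42% lower. TFAM was higher in WSD/WSD, at 0.96 (limma adjusted p = 0.0237). TWNK, the helicase of the mitochondrial genome, and MTERF2 were lower, at -0.50 and -0.55 (limma adjusted p = 0.0227 and 0.0298). Of the 18, 6 had positive fold changes, with a median of -0.05 against 0.10 over all tested genes. This comparison holds no WSD/CD library, and without the animals numbered above 34000 in the shared fit 12 of the 29 complex I genes were lower and 0 higher, where 4.8% of all tested genes were lower. Of 12 biogenesis regulators 4 were higher in WSD/WSD and 0 lower, where 13.2% of all tested genes were higher: GABPA at 0.75, YY1 at 0.66, GABPB1 at 0.40 and CREB1 at 0.37 (limma adjusted p = 0.00947, 0.0467, 0.0355 and 0.0393). Some cell type markers were called in this comparison as well. Of 8 endothelial markers 2 were higher and 0 lower, CDH5 at 1.30 and PECAM1 at 1.11, both junction proteins. The median of that list was 0.39, with 5 of 8 positive. Among 13 stellate cell and fibroblast markers 2 were higher and 0 lower, RGS5 at 1.38 and RELN at 1.53. That count lay near the 13.2% of all tested genes called higher. The stellate list had 7 of 13 positive and a median of 0.12, against 0.10 over all tested genes. Of 10 Kupffer cell and macrophage markers 0 were higher and 2 lower, VSIG4 at -1.37 and CD14 at -0.65. The rest of that list went the other way: 8 of the 10 had positive fold changes, with a median of 0.26 against 0.10 over all tested genes. The endothelial sum was 24.01 to 90.2 FPKM in WSD/WSD and 24.8 to 66.5 in CD/CD, and the part of these cells in the complex I counts was not tested.

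Markers of cell types moved with the 10 transcripts in some libraries and not in others. In bulk tissue, fewer cells of a type and less RNA per cell cannot be told apart. In WSD/CD replicates 6, 7, 9 and 10 the summed FPKM of 13 stellate cell and fibroblast markers was 247, 261, 342 and 248, against 95.1 to 203 in CD/CD livers, and that of the 13 hepatocyte markers was below every other library. Replicate 3 had 5 of 10 transcripts above every CD/CD library. Yet the 3 WSD/CD libraries of its series, 33, had hepatocyte sums of 26744 to 34717 and stellate sums of 127 to 197, inside the CD/CD ranges. The 2 WSD/CD libraries of series 30 had hepatocyte sums of 22728 and 29527, and stellate sums of 142 and 278. Over the groups the hepatocyte sum ran from 26608 to 38749 FPKM in WSD/WSD, 7213 to 34717 in WSD/CD, 25731 to 36832 in CD/WSD and 26361 to 37636 in CD/CD. By gene, 1.52% of all tested genes were higher and 8.03% lower in WSD/CD livers than in CD/CD livers. Against that, 0 of 13 hepatocyte markers were higher and 4 lower, such as AHSG, a secreted plasma protein, at -1.10 (limma adjusted p = 0.036). Of these 13, 0 had a positive fold change, with a median of -0.68 against -0.15 over all tested genes. Of 13 stellate cell markers 8 were higher and 0 lower, such as PDGFRB, a growth factor receptor, at 0.71 (limma adjusted p = 0.0133). Without the animals numbered above 34000, 0 genes of both lists were called. Of the other lists, 1 of 4 tested bile duct markers (SPP1) and 1 of 8 endothelial markers (ERG) were higher, 0 of 10 Kupffer cell and macrophage markers and 0 of 8 T and NK cell markers were called, and CLEC4F was at 0 in 31 libraries. Of 8 red blood cell markers 5 were matched by symbol, among them HBA1 but not HBA2, HBB or HBD. The 5 summed to 0.0977 to 4.35 FPKM over the libraries and none passed the filter, so the level of the other haemoglobin genes is not described here.

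Genes of the immediate early and heat shock responses include many, but not all, that stress and handling switch on fast. Their summed FPKM over 15 genes, of which the chaperones HSPA8 and HSP90AA1 made up 69.7% to 92.2% in a library, was 708, 750, 848 and 733 in WSD/CD replicates 6, 7, 9 and 10, against 958 to 3061 in CD/CD livers, and 944 to 2648 in the other 6 WSD/CD libraries. Without these 2 chaperones the sum was 83.9, 97.3, 157 and 136 in those 4 libraries, against 177 to 279 in CD/CD livers. HSPA1A, HSPA1B and IER2 were on the list but not matched by symbol, so neither sum holds them. By gene, DNAJB1, a heat shock co-chaperone, passed the test in WSD/CD against CD/CD livers (log2 fold change -0.72, limma adjusted p = 0.0285), 0 of 13 were higher and 5 of 13 had positive fold changes, so the 1 call lay near the 8.03% of all tested genes called lower. Depth, RNA integrity and the time between collection and freezing are not given in the labels used here, and the part of these values in the level of the 10 transcripts was not tested.

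**Figure D5:**
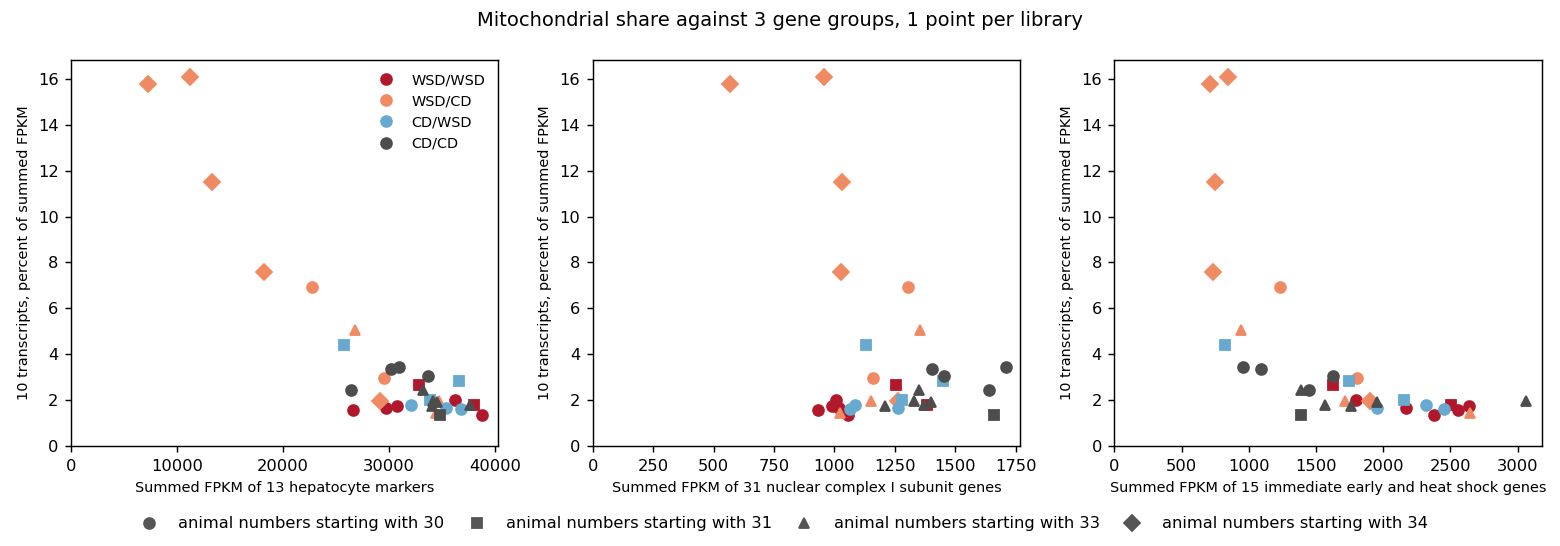
Percent of summed FPKM in the 10 transcripts against the summed FPKM of 13 hepatocyte markers, 31 nuclear complex I subunit genes, and 15 immediate early and heat shock genes, 1 point per library, coloured by group with marker shapes for the number series. The WSD/CD libraries with a share of 7.58% to 16.1% lie at the left of the hepatocyte panel, from 7213 to 18237 FPKM, and the other libraries gather at the right with shares under 7%.

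Of the genes left out, ATP6 had 0.578, 1.68 and 6.54 FPKM as its lowest, median and highest value over the 33 libraries. ATP8 and ND4L were listed at 0 in 32 libraries each. No mitochondrial ribosomal RNA was described.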

How the data were processed

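Liver RNA of 33 animals was analysed from 1 table of FPKM values that the authors deposited, 1 column per animal. Directional mRNA libraries (Swift) of total RNA (Qiagen RNeasy) were read in pairs on a NovaSeq, per the labels. GSNAP, SAMtools and Cufflinks stand in the submitters' processing notes, with no genome build in the sources used here. A value of 999999999 was treated as missing; it touched 15 genes and none of the 10 described. FPKM are not counts, so log2(FPKM + 1) was tested with limma 3.58.1 in R 4.3.3 (intensity trend, 4 group means, 29 residual degrees of freedom), over 12497 genes with a mean of at least 0.5 FPKM and no missing value, with Benjamini-Hochberg adjustment over all of them and a threshold of 0.05. Fold changes on this scale understate changes of low genes such as ND5 and COX2. Libraries were scaled as deposited, so depth and counting error are unknown. Animals were taken as independent.

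The ratio of ND6 and CYTB was tested by exact permutation over animals, or with 100000 resamples for 10 against 10, adjusted over 6 comparisons. Shares, correlations and gene lists were described without a test. The procedures were tested on simulated data. The members, the 16 gene lists and the rules were chosen with earlier results of these data known. All 10 members are named, and of each list up to 4 genes with the smallest p where a list holds calls, besides the 5 genes most and least alike in pattern. Alternatives were another pseudocount, no filter, 3 scalings, other variance models, the number series or the Y-linked level as a term, subsets by animal number, and each library left out.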

Additional observations from a re-analysis of the deposited data

Results flagged for a closer look

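Of 40 checks for a single library far from its group, which by chance mark about 1 in 20, 2 were met, both by CD/WSD replicate 5. ND2 was at 929 FPKM there, against 434 to 561 FPKM in the other 5 CD/WSD libraries, and ND3 at 112 FPKM, against 46.5 to 68.8 FPKM. Among the genes left out of the description, ATP8 was at 16.7 FPKM in WSD/CD replicate 8 and ND4L at 1.32 FPKM in WSD/WSD replicate 6, with 0 in every other library.

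Deviations from the CD/CD mean of the same number series had opposite signs in series 30 and series 31, where every animal of a series moved the same way. This difference was not tested, and series 31 holds 1 CD/CD animal, so its sign rests on that library. For CD/WSD the mean log2 deviation in series 30 was -0.92 for ND1, -0.57 for ND2, -1.25 for ND3, -0.62 for ND4, -1.05 for CYTB, -0.63 for COX1, -0.57 for COX2 and -0.84 for COX3, with positive values between 0.53 and 1.38 in series 31. For WSD/WSD it was -1.05 for ND1, -0.74 for ND2, -1.11 for ND3, -0.40 for ND4, -1.24 for CYTB, -0.46 for COX2 and -0.91 for COX3 in series 30, with positive values between 0.25 and 0.99 in series 31.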

How the results depend on the processing

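The count of called transcripts in WSD/CD minus CD/CD (4) became 6 with sample weights, 3 under quantile normalization and under nuclear scaling, 1 with no filter, 0 with only the groups compared, 0 with the number series as a term, 1 with the Y-linked level as a covariate, 0 without animals numbered above 34000, 0 below 32000, and 0 within series 30 and within series 33. It ran from 0 to 8 with each library left out. In WSD/WSD minus WSD/CD (9) it became 10 with sample weights and under the 3 other scalings, 7 with only the groups compared and within series 30, 2 with the number series, 0 without animals above 34000 and 2 below 32000, and ran from 8 to 10 with each library left out. In WSD/CD minus CD/WSD (2) it became 0 with no filter, 1 under nuclear scaling, 0 with only the groups compared, 10 with sample weights, 0 with the number series, 0 without animals above 34000, 0 below 32000 and 7 within series 30, and ran from 0 to 8. In CD/WSD minus CD/CD (0) it became 1 with sample weights and 5 within series 30. In WSD/WSD minus CD/CD (0) it became 1 with only the groups compared, 1 with sample weights, 1 with the number series, 1 without animals above 34000, 2 below 32000 and 6 within series 30. WSD/WSD minus CD/WSD and the interaction called 0 of 10 under each alternative run, and these 2 and the comparisons of CD/WSD and WSD/WSD with CD/CD called 0 with each library left out. WSD/CD minus CD/CD turned sign for ND6 below 32000 (-0.19), for ND3 (-0.13), ND6 (-0.29) and CYTB (-0.019) within series 30, and for CYTB (-0.053) and COX2 (-0.036) within series 33; the interaction turned for ND3 within series 30 (0.27). The cause was not tested. The counts of called transcripts are read beside all tested genes called, both directions together, which moved as well. Leaving out single libraries aside, these ran from 0 to 1817 in WSD/CD minus CD/CD and 432 to 5848 in WSD/WSD minus WSD/CD. They ran from 0 to 6223 in WSD/CD minus CD/WSD and 3 to 5294 in CD/WSD minus CD/CD. In WSD/WSD minus CD/CD they ran from 17 to 5583, and for the interaction from 0 to 70.

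The ND6 to CYTB difference in WSD/WSD minus WSD/CD (0.03) became -0.23 with a pseudocount of 0.1 and -0.054 without animals above 34000, and ran from -0.10 to 0.18 with each library left out. In WSD/WSD minus CD/CD it ran from -0.26 to 0.019. Without COX3, an alternative added after seeing the data, the mean share was 0.222% for WSD/WSD, 0.822% for WSD/CD, 0.265% for CD/WSD and 0.272% for CD/CD. No paired analysis was possible because the labels give animal numbers and no replicate numbers shared between groups. With unknown depth, 6 to 10 animals a group and number series that divide the groups unevenly, the fits could not separate series from diet for the animals numbered above 34000, and a within-series value was not estimable for WSD/CD minus CD/CD in series 31 and 34.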
